A study of Rattus norvegicus with 14 samples.

Results

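The 7 genes Atp1b1, Atp2a2, Atp2b1, Itpr1, Itpr2, Itpr3 and Orai1 encode ion pumps and calcium channels of the cell membrane and the endoplasmic reticulum. They were followed in rat liver across 3 magnesium diets. A probe set is a group of short oligonucleotides whose values give 1 signal. Every probe set was taken whose gene symbol in the platform annotation was one of these 7, whatever its signal. This gave 19 probe sets of 7 genes, out of 4736 genes with a probe set of their own on the array. RNA of the left lateral lobe, taken at necropsy, had been hybridised to 14 Affymetrix rat arrays, 1 sample to an array. Of these, 5 samples came from animals on a magnesium-supplemented diet (arrays 1 to 5), 5 from a standard diet (arrays 6 to 10) and 4 from a magnesium-deficient diet (arrays 11 to 14). The magnesium content of the diets, the time on them, and the strain, sex and age of the rats are not stated in the labels. Nor do the labels tie each array to its own animal, and the p-values therefore cover the spread among these samples alone, which may be technical.

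A resting cell holds its cytosolic calcium far below that of the blood and of the endoplasmic reticulum. The sodium-potassium pump sets the sodium gradient, while the calcium pumps of the reticulum (SERCA) and of the plasma membrane (PMCA) move calcium into the store and out of the cell. In hepatocytes, hormones such as vasopressin and noradrenaline raise inositol trisphosphate (IP3), IP3 receptors let calcium out of the store, and Orai channels in the plasma membrane refill it. Magnesium is required by the pumps, which use it bound to ATP, and intracellular magnesium inhibits IP3 receptors.

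No member passed the test after adjustment in any comparison. Before adjustment, 1 of the 3 tested probe sets of the SERCA2 gene Atp2a2 was 2.13-fold higher on the deficient than the supplemented diet. A second was 1.36-fold higher there, while a dim one outside the main fit was lower on the deficient diet. The calcium entry channel gene Orai1 was 1.94-fold higher on the deficient than the supplemented diet. By its 1 tested probe set, the plasma membrane pump gene Atp2b1 was 2.15-fold lower on the supplemented than the standard diet. The same probe set was 1.99-fold higher on the deficient than the supplemented diet. For Itpr3, 1 of 2 probe sets was 1.49-fold lower on the deficient than the standard diet. RNA quality measures moved with the diets in the same direction as several of these signals, as set out with the values.

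Signals are in the arbitrary units of the deposited table after quantile normalisation, which gives every array the same distribution. Arrays were compared on the log2 scale, where a difference of 1 is a doubling, with values under 3.93 units set to that floor. A probe set was tested when its mean log2 signal over the 14 arrays was above 3.83 (14.3 units), which 5133 probe sets passed. By this filter 10 member probe sets of 6 genes were tested and 9 were not, among them the single Itpr2 probe set. The members with no test are described by their signals. The ratio of 3′ to 5′ signal of the Gapdh control probe sets, which grows as RNA degrades or target synthesis shortens, was lower on the supplemented diet. Its log2 value was 0.71 ± 0.49 (SD) on those 5 arrays, 1.64 ± 0.61 on the 5 standard arrays and 1.84 ± 0.65 on the 4 deficient arrays. The beta-actin ratio had the same order, at 0.96 ± 0.20, 1.52 ± 0.71 and 1.85 ± 0.82 (SD). Of the 14 arrays, 3 stood apart from the others, supplemented array 5 in its correlation with the rest and standard array 10 and deficient array 13 in both ratios. Supplemented array 5 also had the lowest log2 Gapdh ratio, −0.12, against 0.76 for the next lowest, supplemented array 3. Hepatocyte markers were bright on every array, and all 10 markers on the array passed the filter. Their summed signal ran from 39303 to 43753 units on the supplemented, 39490 to 44538 on the standard and 39843 to 43167 on the deficient diet. Quantile normalisation gives the brightest ranks the same values on every array, so these sums cannot compare hepatocyte content between diets.

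Over the 10 tested member probe sets, limma found 0 past an adjusted p of 0.05, where p-values were adjusted by Benjamini-Hochberg over all 5133 probe sets. The background was 0% of all probe sets between the deficient and the standard diet, 0% between the supplemented and the standard diet, 0.0195% between the deficient and the supplemented diet and 0.0195% in the F-test of any diet difference. At an unadjusted p under 0.05, 1 of 10 members differed between deficient and standard against 3.04% of all probe sets. The corresponding counts were 2 of 10 between supplemented and standard against 8.88%, 4 of 10 between deficient and supplemented against 13%, and 4 of 10 in the F-test against 9%. In each comparison, 1 of the 10 had no overlap between the arrays of the diets, against 1.44% (deficient and standard), 1.81% (supplemented and standard) and 4.95% (deficient and supplemented) of all probe sets. The median difference of the 10 was 0.16 on the log2 scale for deficient minus standard (0.00059 over all probe sets), −0.23 for supplemented minus standard (−0.016) and 0.47 for deficient minus supplemented (0.023). The mean was lowest on the supplemented diet in 8 of 10 member probe sets and in 40.6% of all. The order supplemented, standard, deficient from low to high was seen in 7 of 10 and in 24.5% of all. These counts leave out the member probe sets under the filter. Among those, Atp2a2 rc_AA800212_at and Atp2b1 rc_AI172499_at had their highest mean on the supplemented diet, and Itpr2 its lowest on the standard diet. Probe sets of 1 gene share their transcript, so the 10 tested ones are not independent. The members were also chosen with earlier results of these data known, so their shares beside those of all probe sets are a description only.

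**Figure D1:**
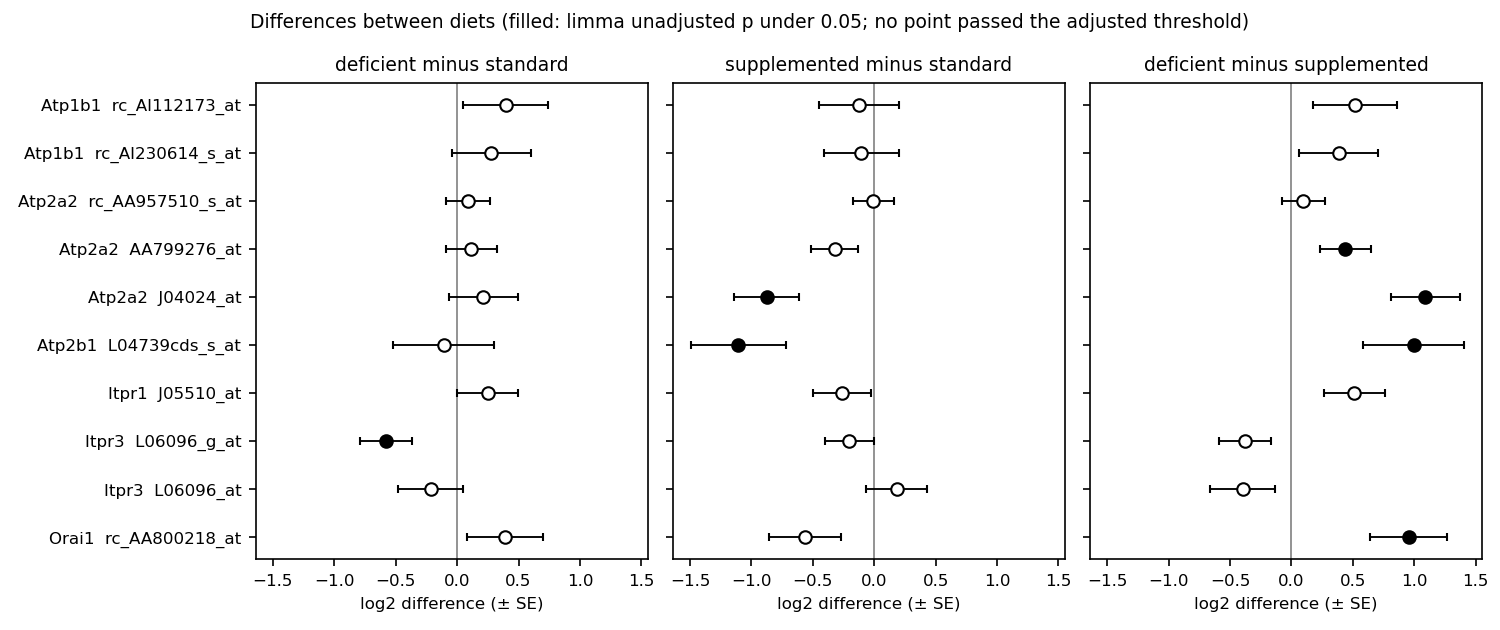
Difference in mean log2 signal between diets for each tested member probe set, with bars of 1 standard error from limma, for deficient minus standard, supplemented minus standard and deficient minus supplemented. Atp2a2 J04024_at lies at −0.88 for supplemented minus standard and at 1.09 for deficient minus supplemented, and Itpr3 L06096_g_at at −0.58 for deficient minus standard.

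Atp1b1 encodes the beta-1 subunit of the sodium-potassium pump, the glycoprotein that carries the catalytic subunit to the plasma membrane. The probe set rc_AI112173_at gave 500.0, 322.4, 274.1, 412.9 and 657.0 units on supplemented arrays 1 to 5. It gave 515.6, 314.4, 355.9, 378.1 and 841.0 on standard arrays 6 to 10, and 633.6, 394.6, 1064.3 and 457.7 on deficient arrays 11 to 14. The diets overlapped, and the highest array of each diet was 1 of the 3 that stood apart. Deficient minus supplemented was 0.52 ± 0.34 (SE) on the log2 scale, with an exact permutation p of 0.230. A second probe set, rc_AI230614_s_at, ran from 65.1 to 194.9 units on the supplemented, 103.9 to 141.7 on the standard and 91.6 to 245.5 on the deficient diet. It followed the first across the arrays (r = 0.863 over 14 arrays, a description), and its largest diet difference was 0.39 ± 0.32 (SE), deficient minus supplemented. The third, X63375exon_at, was at the floor on 14 of 14 arrays, with at most 3.36 units. A difference in Atp1b1 between the diets was thus not detectable beyond the spread of the arrays.

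Atp2a2 encodes SERCA2, a pump that loads calcium into the endoplasmic reticulum and is used by liver cells. Its probe set J04024_at gave 65.2, 75.6, 29.1, 53.6 and 62.5 units on supplemented arrays 1 to 5, and 86.8, 96.1, 129.8, 74.1 and 124.3 on standard arrays 6 to 10. On deficient arrays 11 to 14 it gave 134.1, 138.5, 128.2 and 75.8 units. All 4 deficient arrays were above all 5 supplemented ones, although the lowest deficient array and the highest supplemented array were almost level, and 4 of 5 supplemented arrays were below every standard array. The supplemented, standard and deficient means on the log2 scale were 5.77 ± 0.54 (SD, n = 5), 6.64 ± 0.34 (n = 5) and 6.86 ± 0.41 (n = 4). The deficient diet was higher than the supplemented one by 1.09 ± 0.28 (SE), or 2.13-fold, with a limma p of 0.00152, adjusted p of 0.245 over all probe sets and exact permutation p of 0.00794, the smallest that 4 against 5 arrays can give. The supplemented diet was lower than the standard one by a log2 difference of −0.88 ± 0.27 (SE), with a limma p of 0.00489, an adjusted p of 0.474 and an exact permutation p of 0.0159. Deficient and standard differed by 0.21 ± 0.28 (SE), less than the spread between arrays. In bulk liver RNA, fewer cells of a type and less RNA per cell cannot be told apart in this or any later value.

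The other probe sets of Atp2a2 did not give the same picture. AA799276_at ran from 203.0 to 288.9 units on the supplemented, 213.9 to 370.1 on the standard and 244.5 to 379.3 on the deficient diet. Its difference between deficient and supplemented was 0.44 ± 0.21 (SE), with a limma p of 0.0493, an adjusted p of 0.383 and an exact permutation p of 0.0397, and the diets overlapped. It was 0.22 with the Gapdh ratio in the model and 0.67 with arrays centred on their medians. The brightest, rc_AA957510_s_at, ran from 376.0 to 538.8 units on the supplemented, 358.8 to 533.9 on the standard and 385.1 to 572.0 on the deficient diet. Its 3 differences were 0.09 ± 0.18, −0.01 ± 0.17 and 0.10 ± 0.18 (SE), for deficient minus standard, supplemented minus standard and deficient minus supplemented. The sign of the last 2 changed with RNA quality in the model and without the 3 arrays that stood apart. The fourth probe set, rc_AA800212_at, lay just under the filter with a mean log2 of 3.81 against the limit of 3.83. It gave 12.8, 17.5, 17.3, 16.1 and 29.2 units on the supplemented, 23.1, 5.99, 17.8, 17.9 and 13.6 on the standard, and 7.02, 15.6, 9.04 and 10.3 on the deficient arrays. Fitted without the filter, its difference of deficient minus supplemented was −0.83 ± 0.38 (SE), the opposite direction to J04024_at, with a limma p of 0.0482, an adjusted p of 0.467 and an exact permutation p of 0.0317. Over the 14 arrays, the 3 tested probe sets correlated with each other at r from 0.406 to 0.663, as a description. When they were averaged before the fit, deficient minus supplemented was 0.54 ± 0.19 (SE, limma adjusted p = 0.317) and supplemented minus standard −0.40 ± 0.18 (SE, adjusted p = 0.564).

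Atp2b1 encodes PMCA1, a calcium pump of the plasma membrane that most cell types express. Its probe set L04739cds_s_at gave 32.5, 34.2, 5.87, 19.7 and 24.3 units on supplemented arrays 1 to 5. It gave 49.3, 39.7, 38.7, 40.1 and 47.4 on the standard arrays 6 to 10 and 32.4, 29.5, 52.3 and 49.6 on the deficient arrays 11 to 14. All 5 supplemented arrays were below all 5 standard ones, while 2 deficient arrays were below and 2 above every standard array. The supplemented, standard and deficient means on the log2 scale were 4.31 ± 1.04 (SD, n = 5), 5.42 ± 0.16 (n = 5) and 5.31 ± 0.42 (n = 4). Supplemented minus standard was −1.11 ± 0.39 (SE), or 2.15-fold lower, with a limma p of 0.0122, an adjusted p of 0.492 and an exact permutation p of 0.00794, the smallest possible. Supplemented array 3 widened this difference: without it the value was −0.67. With no floor and log2(signal + 16) in its place, the value was −0.64. Deficient minus supplemented was 1.00 ± 0.41 (SE), with a limma p of 0.0288, an adjusted p of 0.339 and an exact permutation p of 0.0952. It was 0.56 without supplemented array 3 and 0.57 with log2(signal + 16). The second probe set, rc_AI172499_at, ran from 2.70 to 14.1 units over all arrays and rc_AI103671_at was at the floor on 14 of 14, so neither was tested. Fitted without the filter, rc_AI172499_at had 0.13 ± 0.41 (SE) for supplemented minus standard and −0.11 ± 0.43 (SE) for deficient minus supplemented. Both were opposite in sign to those of L04739cds_s_at and smaller than their standard errors.

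**Figure D2:**
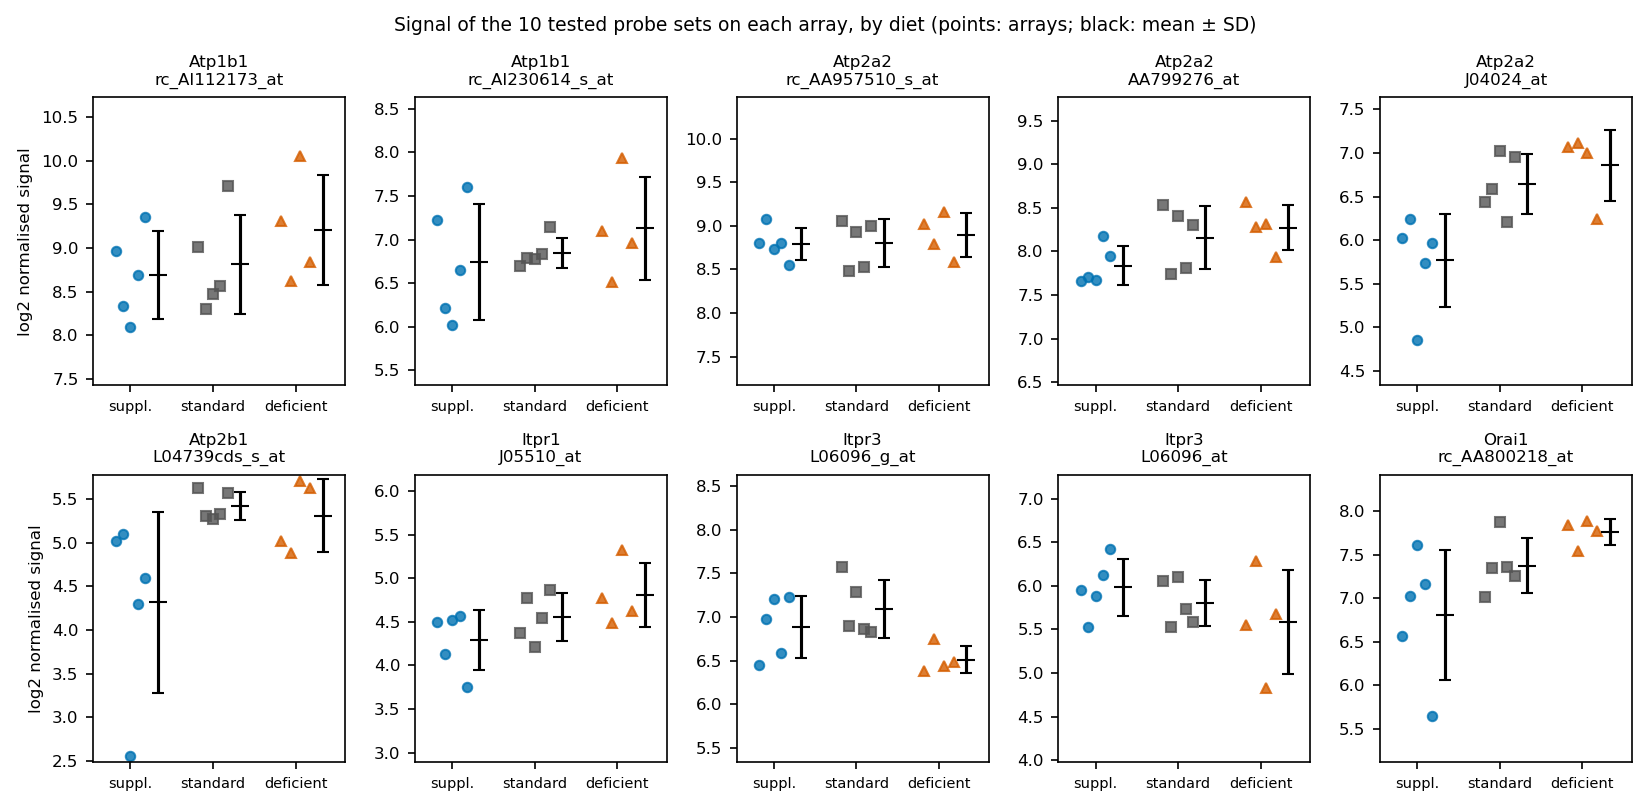
Log2 normalised signal of each of the 14 arrays in the tested member probe sets, grouped by diet, with the mean of each diet and bars of 1 SD. The ranges named here are in units, before log2 was taken. In Atp2a2 J04024_at the 5 supplemented arrays sit between 29.1 and 75.6 units and the 4 deficient ones between 75.8 and 138.5. In Orai1 the deficient arrays sit between 186.4 and 236.6 units.

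The 3 IP3 receptors are tetrameric channels of the endoplasmic reticulum that open when IP3 and calcium bind. Itpr1 is the form best known from neurons. Its probe set J05510_at was dim, with 22.5, 17.5, 22.9, 23.7 and 13.5 units on the supplemented, 20.7, 27.4, 18.6, 23.2 and 29.2 on the standard, and 27.4, 22.4, 39.99 and 24.7 on the deficient arrays. The highest array was deficient 13 and the lowest supplemented 5, and the diets overlapped. Deficient minus supplemented was 0.51 ± 0.25 (SE), with a limma p of 0.0574 and an exact permutation p of 0.0635. It was 0.064 with the Gapdh ratio in the model. The other 4 Itpr1 probe sets were at the floor on 14 of 14 arrays.

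Itpr2 is, with Itpr1, a main IP3 receptor of hepatocytes. Its single probe set, X61677complete_seq_at, gave 7.85, 17.4, 11.1, 10.5 and 12.0 units on the supplemented, 1.38, 2.72, 15.0, 4.91 and 11.8 on the standard, and 6.53, 14.4, 11.7 and 21.5 on the deficient arrays. It was above the filter level of 14.3 units on 4 of 14 arrays and under the floor on 2, both standard. Without the filter, its largest difference was 0.89 ± 0.45 (SE, limma adjusted p = 1.00) for deficient minus standard. Whether Itpr2 RNA differed between the diets was not detectable with this probe set.

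Itpr3 is the IP3 receptor concentrated in bile duct cells of the liver. Its probe set L06096_g_at gave 87.2, 125.9, 147.1, 96.3 and 149.5 units on the supplemented, 191.1, 119.1, 156.4, 116.4 and 113.5 on the standard, and 83.6, 107.1, 86.5 and 89.5 on the deficient arrays. All 4 deficient arrays were below all 5 standard ones, and 2 of the 4 were below every supplemented array. In the same order of diets, the log2 means were 6.89 ± 0.35 (SD, n = 5), 7.09 ± 0.33 (n = 5) and 6.51 ± 0.16 (n = 4). Deficient minus standard was −0.58 ± 0.21 (SE), or 1.49-fold lower, with a limma p of 0.0162, an adjusted p of 0.999 and an exact permutation p of 0.0159. Deficient minus supplemented was −0.38 ± 0.21 (SE), with an exact permutation p of 0.111. The second probe set, L06096_at, is named for the same transcript and ran from 45.9 to 85.9 units on the supplemented, 46.0 to 68.7 on the standard and 28.3 to 78.0 on the deficient diet. Its deficient minus standard difference was −0.22 ± 0.26 (SE), with an exact permutation p of 0.524, and its sign changed when deficient array 13 was left out. The average of both gave −0.40 ± 0.21 (SE, limma adjusted p = 1.00). Of 8 bile duct markers on the array, 6 passed the filter and Krt19 and Spp1 did not. The summed signal of the 6 ran from 305 to 375 units on the supplemented, 324 to 430 on the standard and 346 to 473 on the deficient diet. Aqp1 (92.5 to 163.6, 93.4 to 180.1 and 79.0 to 225.6 units) and Slc4a2 (97.4 to 140.8, 133.3 to 196.7 and 125.8 to 244.5) were the brightest. The sum therefore follows these 2 genes more than the dimmer markers, and is not a measure of bile duct cell content. The part of bile duct cells in the Itpr3 values was not tested.

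Orai1 forms the pore of the store-operated calcium channel in the plasma membrane. Its single probe set, rc_AA800218_at, gave 95.1, 130.4, 195.9, 143.5 and 50.1 units on supplemented arrays 1 to 5 and 129.3, 162.9, 234.8, 164.3 and 152.2 on standard arrays 6 to 10. On deficient arrays 11 to 14 it gave 229.0, 186.4, 236.6 and 218.1. Of the 4 deficient arrays, 3 were above every supplemented array, and 4 of 5 standard arrays were below every deficient one. The supplemented, standard and deficient means on the log2 scale were 6.80 ± 0.75 (SD, n = 5), 7.37 ± 0.31 (n = 5) and 7.76 ± 0.15 (n = 4). Deficient minus supplemented was 0.95 ± 0.31 (SE), or 1.94-fold, with a limma p of 0.00779, an adjusted p of 0.268 and an exact permutation p of 0.0317. Supplemented minus standard was −0.56 ± 0.29 (SE), with an exact permutation p of 0.167, and deficient minus standard 0.39 ± 0.31 (SE), with an exact permutation p of 0.0635. Supplemented array 5, one of the arrays that stood apart, held the lowest signal. Without it, supplemented minus standard was −0.28 and deficient minus supplemented 0.66.

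The Gapdh 3′/5′ ratio was set against the log2 signal of each tested member over the 14 arrays, in 10 relations. Atp2a2 J04024_at rose with the ratio, with Pearson's r of 0.709 (permutation p = 0.00495, Benjamini-Hochberg adjusted p = 0.0248) and Spearman's rho of 0.846 (permutation p = 0.00024, adjusted p = 0.0024). Without arrays 13 and 10, whose ratios lay farthest from the median, r was 0.680. Within the diets r was 0.379 (permutation p = 0.199, adjusted p = 0.329), so the relation did not hold there at the threshold. For Orai1, r was 0.659 (permutation p = 0.0117, adjusted p = 0.0264), rho 0.556 (permutation p = 0.0421, adjusted p = 0.105), r without the same arrays 0.796, and r within diets 0.397 (permutation p = 0.132, adjusted p = 0.288). For Itpr1, r was 0.787 (permutation p = 0.00156, adjusted p = 0.0156), rho 0.574 (permutation p = 0.0348, adjusted p = 0.105), r without those arrays 0.628 and r within diets 0.697 (permutation p = 0.0138, adjusted p = 0.069). For Atp2a2 rc_AA957510_s_at, r was 0.637 (permutation p = 0.0128, adjusted p = 0.0264), rho 0.513 (permutation p = 0.0636, adjusted p = 0.127), r without the 2 arrays 0.477 and r within diets 0.772 (permutation p = 0.00369, adjusted p = 0.0369). For Itpr3 L06096_g_at, r was −0.303 (permutation p = 0.292, adjusted p = 0.324), rho −0.354 (permutation p = 0.215, adjusted p = 0.269), r without them −0.176 and r within diets −0.326 (permutation p = 0.284, adjusted p = 0.355). For Atp2b1, r was 0.480 (permutation p = 0.0979, adjusted p = 0.122), rho 0.477 (permutation p = 0.0886, adjusted p = 0.148), r without them 0.365 and r within diets 0.078 (permutation p = 0.764, adjusted p = 0.764). For Atp2a2 AA799276_at, r was 0.633 (permutation p = 0.0132, adjusted p = 0.0264), rho 0.771 (permutation p = 0.00191, adjusted p = 0.00955), r without them 0.640 and r within diets 0.390 (permutation p = 0.230, adjusted p = 0.329). For Itpr3 L06096_at, r was −0.625 (permutation p = 0.0182, adjusted p = 0.0303), but rho was −0.323 (permutation p = 0.259, adjusted p = 0.288), r without those 2 arrays −0.344 and r within diets −0.558 (permutation p = 0.0679, adjusted p = 0.226), so the relation rested on those arrays. For Atp1b1 rc_AI112173_at, r was 0.515 (permutation p = 0.0584, adjusted p = 0.0834), rho 0.424 (permutation p = 0.132, adjusted p = 0.189), r without them −0.115 and r within diets 0.455 (permutation p = 0.144, adjusted p = 0.288). For Atp1b1 rc_AI230614_s_at, r was 0.256 (permutation p = 0.376, adjusted p = 0.376), rho 0.204 (permutation p = 0.481, adjusted p = 0.481), r without them −0.298 and r within diets 0.109 (permutation p = 0.709, adjusted p = 0.764). Supplemented array 5, with the lowest ratio and the lowest Orai1 and Itpr1 signals, was kept in every r without arrays 13 and 10. The part of array 5 in these relations was not tested.

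**Figure D3:**
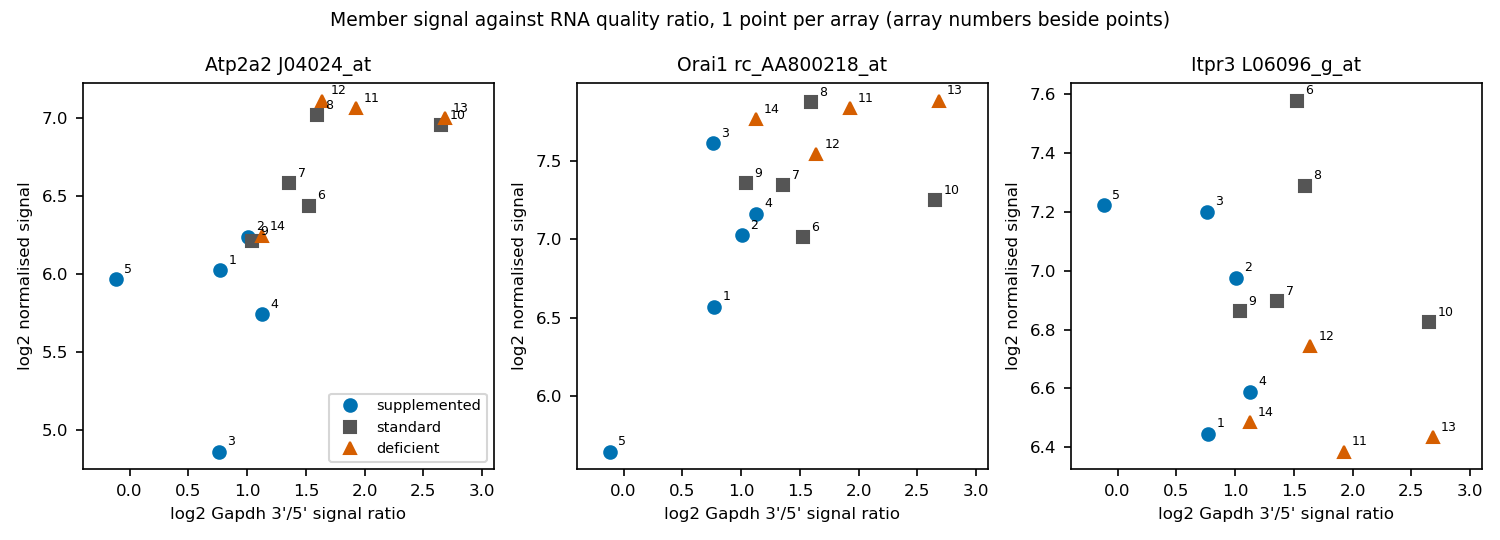
Log2 signal of Atp2a2 J04024_at, Orai1 rc_AA800218_at and Itpr3 L06096_g_at against the log2 Gapdh 3′/5′ signal ratio, 1 point per array, coloured by diet. The supplemented arrays lie toward the low end of the ratio, where Atp2a2 J04024_at and Orai1 have their lowest signals. Supplemented array 4 (1.12) nevertheless lies above standard array 9 (1.04). Deficient array 13 and standard array 10 lie at the high end. For Itpr3 L06096_g_at, Pearson's r with the ratio was −0.303.

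With the Gapdh ratio in the model, deficient minus supplemented was 0.76 ± 0.36 (SE) for Atp2a2 J04024_at and 0.57 ± 0.40 (SE) for Orai1, against 1.09 and 0.95 without it. Supplemented minus standard was −0.61 ± 0.32 (SE) for J04024_at and −1.02 ± 0.50 (SE) for Atp2b1. None of these 4 values passed an unadjusted p of 0.05 in that fit, whereas the deficient minus standard difference of Itpr3 L06096_g_at, −0.54 ± 0.21 (SE), did. With the beta-actin ratio instead, deficient minus supplemented was 0.72 ± 0.29 (SE) for J04024_at and 1.00 for Orai1, both past an unadjusted p of 0.05. All adjusted limma p-values of these fits lay above 0.9. Diet and ratio moved together and cannot be fully told apart in these arrays.

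The lists of other genes of the pathway gave 52 tested genes, each by its brightest probe set. Of these, 0 passed the adjusted threshold in limma in any comparison. At an unadjusted p under 0.05, 0 were higher and 1 lower for deficient minus standard (1.92%), 1 higher and 3 lower for supplemented minus standard (7.69%), and 1 higher and 2 lower for deficient minus supplemented (5.77%). The shares of all probe sets were 3.04%, 8.88% and 13%. Those shares count every tested probe set rather than the brightest of each gene, so setting them side by side is a description only. The medians were −0.019, −0.049 and 0.012 on the log2 scale.

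Of 17 listed sodium-potassium pump subunits and regulators, 9 were on the array and 5 tested, and 0 were past an unadjusted p of 0.05. The smallest F-test p was that of Fxyd4 (0.227), a regulator of the pump, with −0.35 ± 0.20 (SE) for deficient minus supplemented. Atp4a, the gastric proton pump, had −0.28 ± 0.24 (SE) for deficient minus standard, and Atp1b2, the beta-2 subunit, 0.32 ± 0.31 (SE) for supplemented minus standard. Of 14 other calcium pumps, exchangers and regulators, 11 were on the array and 6 tested, again with 0 past that level. Rgn, a calcium-binding protein abundant in liver, had 0.89 ± 0.50 (SE) for supplemented minus standard. Its probe set was dim, with 11.6 to 35.3 units on the supplemented, 3.93 (the floor) to 22.7 on the standard and 6.08 to 27.2 on the deficient diet. The value therefore describes a signal near the floor. Atp2c1, the calcium pump of the Golgi, had 0.32 ± 0.21 (SE) and Slc8a1, a sodium-calcium exchanger, −0.51 ± 0.39 (SE), both for deficient minus standard.

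Of 30 store release and entry channel genes, 8 were on the array and 3 tested. Trpc1, a cation channel subunit of the plasma membrane, had log2 means of 4.91 ± 0.50 (SD, n = 5), 5.28 ± 0.40 (n = 5) and 4.02 ± 0.97 (n = 4) in the order supplemented, standard, deficient. Its deficient minus standard difference was −1.26 ± 0.40 (SE, limma adjusted p = 0.999), the opposite direction to Orai1. Vdac1, the main channel of the outer mitochondrial membrane, had 8.03 ± 0.27, 7.11 ± 0.92 and 6.86 ± 0.65 (SD). Deficient minus supplemented was −1.17 ± 0.40 (SE, limma adjusted p = 0.297). P2rx4, an ATP-gated channel, had 0.35 ± 0.20 (SE) for deficient minus standard.

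Of 34 hormone receptor and IP3 signalling genes, 22 were on the array and 14 tested. Plcg1, a phospholipase C that makes IP3 after growth factor signals, had 0.40 ± 0.16 (SE, limma adjusted p = 0.335) for deficient minus supplemented. Plcb2, a phospholipase C driven by G proteins, had −0.90 ± 0.41 (SE, limma adjusted p = 0.547) for supplemented minus standard. P2ry2, a nucleotide receptor that acts through IP3, had 0.57 ± 0.30 (SE) for deficient minus supplemented. Of 40 calcium buffers, sensors and effectors, 31 were on the array and 24 tested. Camkk1, a kinase activated by calmodulin, had −0.69 ± 0.25 (SE, limma adjusted p = 0.492) and Calb2, the buffer calretinin, −0.54 ± 0.21 (SE, limma adjusted p = 0.499), both for supplemented minus standard. Camk2b had −0.37 ± 0.19 (SE) for deficient minus standard.

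Among bile duct markers, Slc4a2, an anion exchanger, had −0.49 ± 0.19 (SE, limma adjusted p = 0.499) for supplemented minus standard and 0.65 ± 0.20 (SE, limma adjusted p = 0.264) for deficient minus supplemented. Epcam, an adhesion molecule of bile duct cells, had 0.69 ± 0.36 (SE, limma adjusted p = 0.584) and −0.29 ± 0.39 (SE, limma adjusted p = 0.775) for the same comparisons. Of the 6 tested bile duct markers, 3 were higher and 3 lower for supplemented minus standard (median 0.015), and 4 higher and 2 lower for deficient minus supplemented (median 0.17). All 5 tested Kupffer cell markers of 6 on the array had higher supplemented than standard means, with a median difference of 0.27. For deficient minus supplemented, 1 of these markers was higher and 4 were lower (median −0.28). In both comparisons 0 of them passed the adjusted threshold in limma. Their summed signal was 1192 to 1737 units on the supplemented, 1016 to 1301 on the standard and 1047 to 1365 on the deficient diet. Of the muscle markers, 3 of 12 on the array were tested, with summed signals of 88.2 to 109.2 units on the supplemented, 86.1 to 134.0 on the standard and 75.8 to 96.7 on the deficient diet. In the same order of diets, the 6 of 7 tested endothelial markers summed to 216 to 288, 232 to 285 and 235 to 295 units. The 9 of 10 stellate cell and fibroblast markers summed to 539.8 to 721, 577 to 819 and 621 to 741 units. The 7 of 10 blood markers summed to 2181 to 4369, 2429 to 3004 and 2837 to 4198 units. Hbb alone gave 1852 to 3993, 2188 to 2641 and 2504 to 3750 units, so this sum was mainly 1 gene. The 8 of 12 pancreas and fat markers summed to 936 to 1950.5, 982 to 1288 and 710.0 to 1092 units. Lep, Ins1, Ins2 and Amy2a3 were the brightest of them, while Gcg, Prss1, Cpa1 and Plin1 did not pass the filter. The part of these cell types in the members' values was not tested.

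Over the 14 arrays and 3072 other genes, the genes most like each member were found by Pearson's r of log2 signal. Orai1 was most like Klkb1 (0.889) and Gpr19 (0.885), Atp2b1 like Coro7 (0.890) and Wfdc1 (0.845), and Itpr1 like Zbtb24 (0.892) and Psmb1 (0.868). Itpr3 was most like Dpm2 (0.832) and Fgfr1-ps1 (0.830), Atp1b1 like Urgcp (0.863) and Shb (0.838), and Atp2a2, by its brightest probe set, like Tbc1d2b (0.789) and Safb (0.767). Between members, r was highest for Itpr1 and Orai1 (0.655) and lowest for Itpr1 and Itpr3 (−0.602). These are the largest of many values over shared arrays and describe them only.

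The promoters of the 4 genes with a tested probe set past an unadjusted p of 0.05 in the F-test are shown to set the members side by side, as the 150 bases before the start of transcription from RefSeq (GRCr8), 5′ to 3′ on the gene's strand. Capitals mark matches on either strand to 3 motifs of basal promoters: the GC box, with the letters GGGCGG, the CCAAT box, named by its letters, and the TATA box, searched as TATAAA.
Atp2a2: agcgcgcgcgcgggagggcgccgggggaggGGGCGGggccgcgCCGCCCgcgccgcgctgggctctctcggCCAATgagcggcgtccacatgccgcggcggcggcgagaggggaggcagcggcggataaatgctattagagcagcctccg
Atp2b1: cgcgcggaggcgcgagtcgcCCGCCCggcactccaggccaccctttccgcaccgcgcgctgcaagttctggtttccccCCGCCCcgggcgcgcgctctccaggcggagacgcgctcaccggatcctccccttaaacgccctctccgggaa
Itpr3: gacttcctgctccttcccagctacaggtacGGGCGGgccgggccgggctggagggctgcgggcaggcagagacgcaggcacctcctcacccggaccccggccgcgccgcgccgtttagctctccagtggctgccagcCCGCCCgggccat
Orai1: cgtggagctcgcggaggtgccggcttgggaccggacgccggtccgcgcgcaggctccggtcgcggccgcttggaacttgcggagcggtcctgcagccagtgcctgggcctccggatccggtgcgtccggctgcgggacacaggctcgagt
The windows lie at chr12:39733369-39733518 (plus strand) for Atp2a2, chr7:35622311-35622460 (plus strand) for Atp2b1, chr20:5138662-5138811 (plus strand) for Itpr3 and chr12:39209031-39209180 (minus strand) for Orai1. Atp2a2 held 2 GC boxes and 1 CCAAT box, Atp2b1 and Itpr3 2 GC boxes each, and Orai1 0 matches of any kind. Among 33469 promoter windows of the same length, 26.0% held a GC box, 23.5% a CCAAT box and 8.00% a TATA box. G and C made up 78.0% of the window of Atp2a2, 74.0% of that of Atp2b1, and 74.7% of those of Itpr3 and Orai1. A match describes these letters only.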

How the data were processed

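RNA of 14 rat liver samples was measured on an Affymetrix rat array of 8799 probe sets, from about 5 µg of total RNA each, per the labels. The authors deposited intensity values, 1 linear signal per probe set. The labels state neither the signal software nor detection calls, so which dim signals were above background is unknown. After trimming 2% at each end, every array of the deposited table had a mean of 150.3 units, while medians differed by 1.91 times.

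The 59 control probe sets were left out, arrays were quantile normalised, signals were floored at the pooled 20th percentile (3.93 units), and log2 was taken. Probe sets with a mean above the pooled 40th percentile were fitted with limma 3.58.1 in R 4.3.3 (1 model of 3 diets, trended eBayes), tested on simulated data first. All p-values are two-sided, and adjusted ones are by Benjamini-Hochberg over the 5133 probe sets. Single values also had an exact permutation test over arrays, whose smallest p is 0.00794. Correlations had 100000 resamples. The floor understates fold changes of dim probe sets, and precision is limited by how few arrays there are.

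Diets and array numbers came from the sample titles. Symbols came from the platform annotation: 7006 probe sets had 1 symbol, 308 several and 1426 none, and all 7 members were in the current rat gene table. All member probe sets were described. From each pathway list, the 3 genes with the smallest F-test p were named, by the probe set with the highest mean, and for likeness the 2 genes with the highest r. The markers of hepatocytes, bile duct, Kupffer, endothelial, stellate, muscle, blood and pancreas or fat cells were listed likewise. The members and lists were chosen with earlier results of these data known. Averaging the tested probe sets of a gene was an alternative chosen after seeing the data. No pair of arrays held identical values.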

Additional observations from a re-analysis of the deposited data

Results flagged for a closer look

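In Atp2a2 J04024_at, deficient array 14 was far below the other 3 deficient arrays. Its log2 signal was 6.24 against 7.00 for the nearest of them, a gap of 0.871 of the whole range of the group, above Dixon's 95% critical value for 4 samples. Among the 30 groups checked in the tested member probe sets this was the only one past its limit, and chance gives about 1 in 20. Its log2 Gapdh 3′/5′ ratio was 1.12, the lowest of the 4 deficient arrays, and the part of that ratio in the value was not tested. Without that array, deficient minus supplemented was 1.29 on the log2 scale.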

How the results depend on the processing

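Over the 30 member differences and 24 alternatives each (720 values), 694 kept their direction and side of the adjusted threshold, 26 changed sign and 0 crossed it. The lowest adjusted p was 0.0797, for Atp2a2 J04024_at, deficient minus supplemented. No paired analysis was possible because no array number was shared between diets. The cause of the changes below was not tested.

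Centring arrays on their medians moved the median of all probe sets to −0.11 for supplemented minus standard and 0.17 for deficient minus supplemented, and member differences are to be read against these shifts. Of all probe sets, the 1 called between deficient and supplemented became 0 with values as deposited, with log2(signal + 16), without the filter, with only these 2 diets fitted, with either ratio as a covariate, and without the 3 arrays that stood apart. The 1 called by the F-test became 0 under the same settings except the fit of 2 diets, which has no F-test of 3. Between supplemented and standard, 0 became 1 with array weights and 1 with probe sets of a gene averaged. Leaving out 1 array gave 0 to 2, 0 to 4 and 0 to 3 calls for supplemented minus standard, deficient minus supplemented and the F-test. The highest of these came without supplemented array 2 (supplemented minus standard and F-test) and without deficient array 14 (deficient minus supplemented).

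An unadjusted p under 0.05 was kept in 23 of 24 alternatives by Atp2a2 J04024_at (supplemented minus standard, deficient minus supplemented), Atp2b1 (supplemented minus standard) and Orai1 (deficient minus supplemented), each lost with the Gapdh covariate. It was kept in 24 of 24 by Itpr3 L06096_g_at (deficient minus standard), in 16 of 24 by Atp2b1 and in 11 of 24 by Atp2a2 AA799276_at (deficient minus supplemented).

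No difference whose sign changed was past an unadjusted p of 0.05 in the fit as reported. For Atp2a2 rc_AA957510_s_at, supplemented minus standard was 0.058 with array weights, 0.29 with the Gapdh covariate, 0.11 with the beta-actin covariate, 0.10 without the 3 arrays and −0.089 to 0.055 without 1 array. Its deficient minus supplemented difference was −0.26, −0.095 and −0.052 under the Gapdh covariate, the beta-actin covariate and without the 3 arrays, and its deficient minus standard difference −0.0016 to 0.19 without 1 array. With the Gapdh covariate, supplemented minus standard was 0.10 for Itpr1, −0.18 for Itpr3 L06096_at and 0.29 for Atp1b1 rc_AI112173_at, and deficient minus supplemented 0.045 for Itpr3 L06096_at. With the beta-actin covariate, Atp1b1 rc_AI112173_at had 0.23 (supplemented minus standard) and −0.040 (deficient minus supplemented), and Atp1b1 rc_AI230614_s_at 0.12 (supplemented minus standard). Without 1 array, supplemented minus standard ran from −0.29 to 0.10 for Atp1b1 rc_AI112173_at and −0.32 to 0.073 for rc_AI230614_s_at, and deficient minus standard from −0.24 to 0.032 for Atp2b1 and −0.45 to 0.038 for Itpr3 L06096_at.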
